A study of Mus musculus with 7 samples.

Results

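The genes of cholesterol synthesis, uptake and SREBP control were taken as a list of 29 symbols, named by their role in the pathway and with no threshold on their values: 19 enzymes that lead from acetyl-CoA to cholesterol and the isoprenoids, 7 genes of the sterol regulatory element binding protein (SREBP) switch, and 3 genes of intracellular sterol transport. All 29 were found among the 52740 identifiers of the deposited table, and all 29 were among the 16990 genes that passed the filter on low counts and were tested. RNA was sequenced from the retinal pigment epithelium (RPE) of 4 WT mice (C57BL6/J, 3 females and 1 male) and 3 LC3b-/- mice (strain B6;129P2-Map1lc3b tm1Mrab/J, 2 females and 1 male), all 24 months old. Each mouse gave 1 library. The WT strain and the knockout strain may therefore differ in background as well as at Map1lc3b, and the 2 cannot be told apart here. RPE was released with hyaluronidase and trypsin once cornea, ciliary body and lens had been taken off the eye. The libraries are named by genotype, sex and mouse number as F1, F2, F3 and M1 in WT, and as F1, F3 and M in LC3b-/-.

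Cholesterol is made from acetyl-CoA through mevalonate, farnesyl diphosphate, squalene and lanosterol, and a side branch supplies the geranylgeranyl groups that anchor small GTPases to membranes. When sterol in the endoplasmic reticulum is low, SCAP carries the SREBP precursors to the Golgi, where a pair of proteases releases the transcription factor that switches on nearly every gene of the pathway. When sterol is high, the INSIG proteins hold SCAP back. RPE takes up lipid with the outer segments it engulfs each day, and NPC2 and NPC1 pass the cholesterol freed in lysosomes on to other membranes.

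The letters read by SREBP and by its partners NF-Y and Sp1 were looked for in RefSeq promoter windows of 300 bases, 250 before and 50 after the start, on both strands. The table held 32 windows for 24 of the 29 genes (none for Fdps, Fdft1, Sqle, Stard4 and Npc1). The sterol regulatory element letters TCACNCCAC were in 1 of the 32 windows (3.12%), that of Hmgcs1, and in 1.24% of all 32851 windows. The looser letters CACNCCAC, which overlap them, were in 3 windows (9.38%, against 6.24% of all), those of Hmgcs1, Insig1 and Acat2. CCAAT, the NF-Y box, was in 21 of 32 windows (65.6%) and 20 of 24 genes, against 37.4% of all windows. GGGCGG, the Sp1 box, was in 25 of 32 windows (78.1%) and 21 of 24 genes, against 35.7% of all. The 3 genes with the looser letters are shown because they hold the SREBP letters. Only bases that precede every annotated exon of the gene are printed, with the matches to CACNCCAC, TCACNCCAC, CCAAT and GGGCGG, read on either strand, in capitals.
Hmgcs1 (GRCm39, chr13:120151637-120151886, plus strand): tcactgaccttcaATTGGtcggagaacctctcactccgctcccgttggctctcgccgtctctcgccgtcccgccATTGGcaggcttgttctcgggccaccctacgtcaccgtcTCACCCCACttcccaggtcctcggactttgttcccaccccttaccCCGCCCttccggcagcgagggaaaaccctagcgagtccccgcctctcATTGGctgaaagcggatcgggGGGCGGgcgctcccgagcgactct
Insig1 (GRCm39, chr5:28276160-28276314, plus strand): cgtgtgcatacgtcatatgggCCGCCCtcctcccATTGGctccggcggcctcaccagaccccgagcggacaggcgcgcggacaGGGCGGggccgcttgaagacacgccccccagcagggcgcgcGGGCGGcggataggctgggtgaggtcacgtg
Acat2 (GRCm39, chr17:13179642-13179862, minus strand): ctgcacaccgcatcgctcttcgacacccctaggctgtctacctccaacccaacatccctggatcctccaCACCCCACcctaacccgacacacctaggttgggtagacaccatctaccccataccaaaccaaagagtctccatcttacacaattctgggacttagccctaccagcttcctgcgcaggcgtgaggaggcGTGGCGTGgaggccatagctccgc
In Hmgcs1 the match TCACCCCAC began 137 bases before the RefSeq start, between NF-Y boxes at 176 and 45 bases and beside Sp1 boxes at 92 and 24 bases, and part of this window is also annotated as exon of an antisense RNA, Gm60502. In Insig1 the printed stretch held 1 NF-Y and 3 Sp1 boxes, and the match to the looser letters, GTGGCGTG, lay 9 bases before the RefSeq start, inside a first exon of GENCODE, and is not printed in context. In Acat2 matches began 181 and 53 bases before the start, and the stretch shown held neither partner box, the Sp1 box of this gene being outside it. These are matches of letters in a window and were not tested for binding.

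Levels are given as CPM, counts relative to a library size corrected by TMM factors, and fold changes as LC3b-/- over WT on the log2 scale. Their standard error (SE) was derived from the fitted coefficient and the F statistic of edgeR's quasi-likelihood test. Adjusted p is by Benjamini-Hochberg over all 16990 genes tested. The libraries held 24495952 to 35616134 counts. Map1lc3b, the targeted gene, was at 104 to 130.1 CPM in the WT libraries and at 6.76 to 8.33 CPM in the LC3b-/- libraries (log2 fold change -3.98 ± 0.15, edgeR adjusted p = 0.0001862). RPE markers were abundant in all libraries, with 10 markers summing to 22021 to 33026 CPM in WT and 10901 to 20744 CPM in LC3b-/-, although Best1 stood at only 0.861 to 1.71 CPM. Keratins and other markers of ocular surface epithelium, a tissue outside the RPE, summed to 10.8 to 2489 CPM in WT and 3501 to 25735 CPM in LC3b-/-. In bulk RNA, fewer cells of a type and less RNA per cell cannot be told apart.

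Most of the pathway leaned upward on average in the LC3b-/- libraries. Among the enzymes the lean was in the female LC3b-/- libraries, more in F1 than in F3. Of the 29 genes, 22 had a log2 fold change above 0, with a median of 0.46 over the 29 and 0.01 over all genes tested. Stard4, a carrier of cholesterol between membranes, had the highest fold change (2.43), followed by the farnesyl diphosphate synthase Fdps (1.78), and the lowest belonged to the geranylgeranyl diphosphate synthase Ggps1 (-0.60). By role, the median was 0.62 over 8 mevalonate and isoprenoid genes, 0.51 over 11 squalene and sterol genes, -0.14 over 7 genes of SREBP control and 0.76 over 3 transport genes. None of the 29 was differentially expressed by edgeR, with thresholds of 0.05 on the adjusted p and 1.5 on the fold change, a call that 40 of all 16990 genes met (0.235%). At an unadjusted p under 0.05 edgeR gave 10 of the 29 higher in LC3b-/- (13.5% of all genes tested) and 2 lower (10.6% of all). DESeq2 called 4, Fdps, Stard4 and Npc1 higher and Ggps1 lower, where it called 9.48% of 19117 genes. In 3 genes every LC3b-/- library lay above every WT library (Fdps, Stard4 and Npc1, against 12.0% of all genes) and in 2 every one lay below (Ggps1 and Npc2, against 10.3%). As shares of 29, both counts were below those of all genes.

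**Figure D1:**
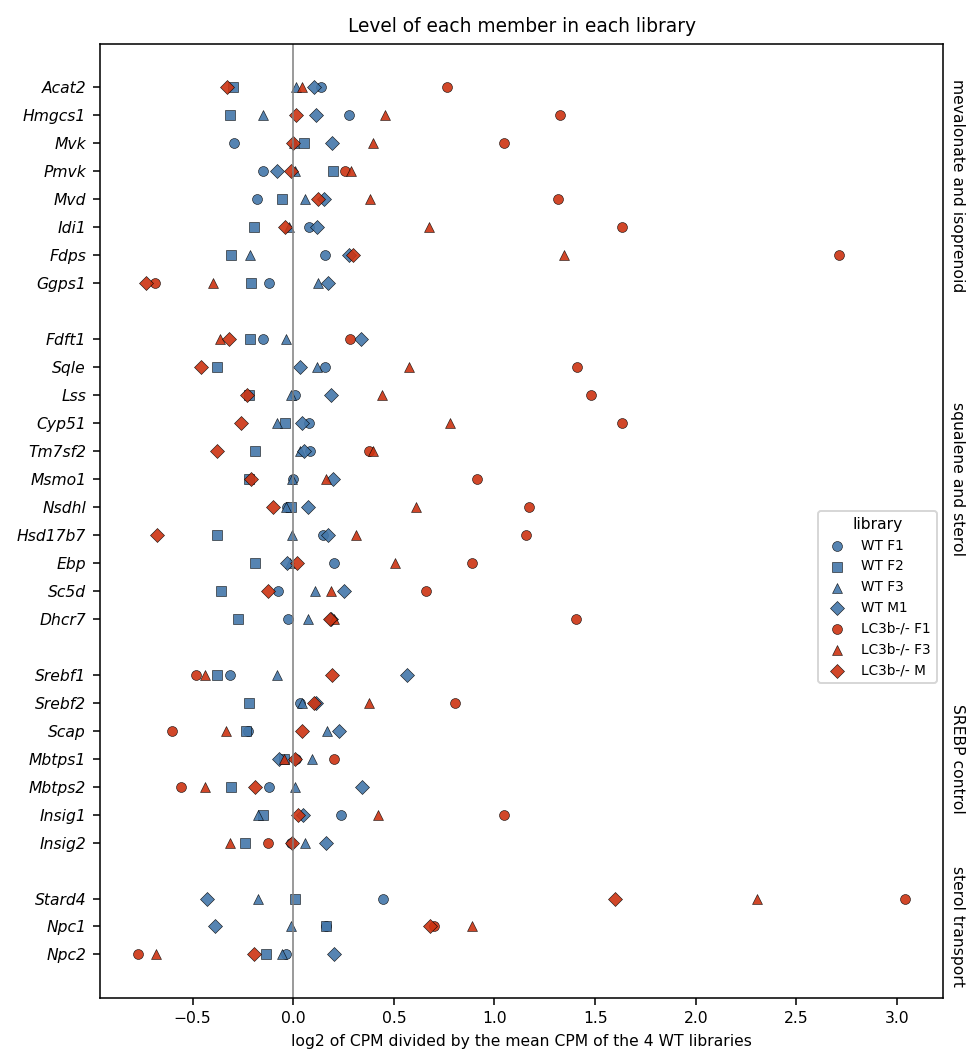
Each point is 1 library's CPM of 1 gene divided by the mean of the 4 WT libraries, on a log2 axis, with WT in blue, LC3b-/- in red and shape giving the mouse. LC3b-/- F1 lies to the right of all WT libraries in 22 of 29 genes, F3 in 18 and M in 3.

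**Figure D2:**
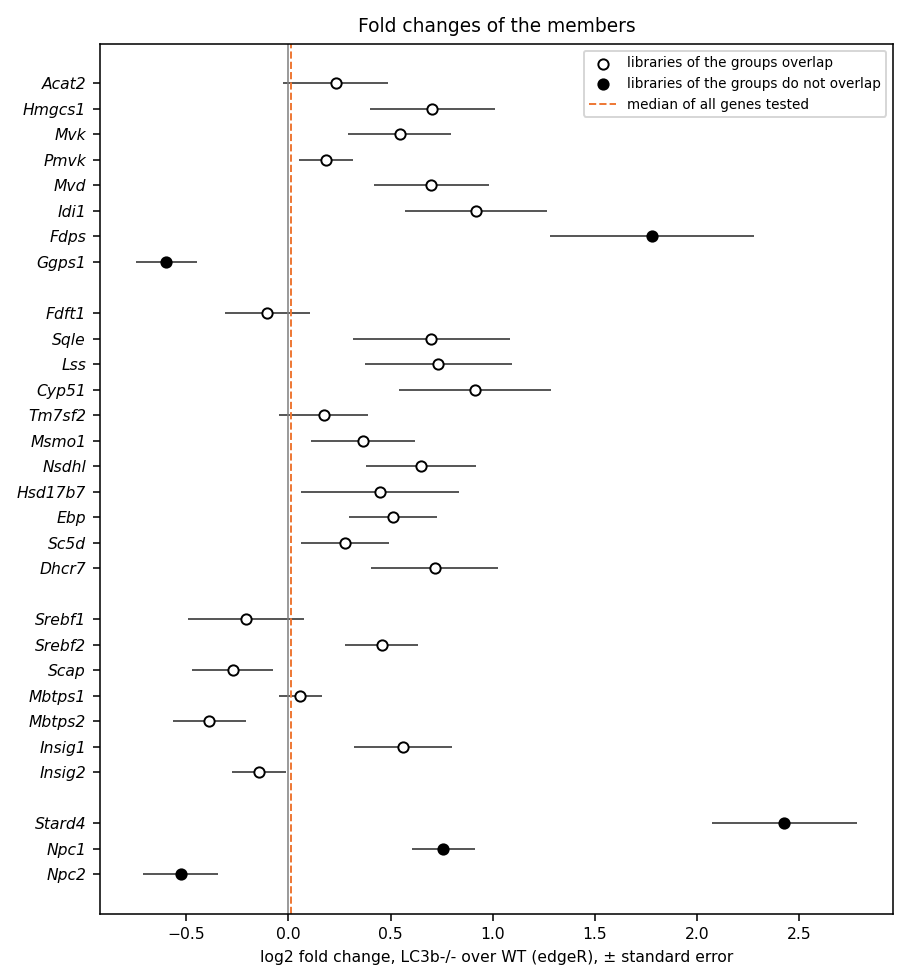
Log2 fold change of LC3b-/- over WT for each gene (points) with its SE (bars), filled where the libraries of the groups do not overlap, and the median of all genes tested as a dashed line. 22 of 29 points lie above 0, and the 5 filled points are Fdps, Ggps1, Stard4, Npc1 and Npc2.

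Among the mevalonate and isoprenoid enzymes, Fdps had the largest log2 fold change. Its product, farnesyl diphosphate, is the branch point between sterols, prenyl groups and dolichol. Fdps stood at 28.6, 20.7, 22.1 and 31.1 CPM in the WT libraries F1, F2, F3 and M1, and at 168, 65.0 and 31.5 CPM in the LC3b-/- libraries F1, F3 and M. The groups did not overlap, but LC3b-/- M lay only just above WT M1, and with DESeq2's size factors the groups overlapped. The log2 fold change was 1.78 ± 0.50 (edgeR adjusted p = 0.111). Idi1, which isomerizes the isoprene unit one step earlier, stood at 31.2, 25.9, 29.1 and 32.1 CPM in WT and at 91.9, 47.3 and 28.8 CPM in LC3b-/-, in the same order of mice. The first pair of LC3b-/- libraries lay above all WT libraries and LC3b-/- M inside their range, for a log2 fold change of 0.92 ± 0.35 (edgeR adjusted p = 0.172). Mvd, the decarboxylase that makes the isoprene unit, was at 10.6, 11.5, 12.5 and 13.3 CPM in WT and 29.8, 15.6 and 13.1 CPM in LC3b-/- (0.70 ± 0.28, edgeR adjusted p = 0.190), again with the male library inside the WT range.

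Ggps1, which extends farnesyl to geranylgeranyl diphosphate for protein prenylation, lay on the other side. It was at 27.4, 25.7, 32.4 and 33.6 CPM in WT and at 18.5, 22.6 and 17.9 CPM in LC3b-/-. All 3 LC3b-/- libraries, the male included, were below all WT libraries, and the log2 fold change was -0.60 ± 0.15 (edgeR adjusted p = 0.0982). Ggps1 shares its locus with Arid4b on the opposite strand. Hmgcs1, which makes HMG-CoA and carries the TCACCCCAC match, was at 60.0 to 90.6 CPM in WT and 187, 102 and 75.5 CPM in LC3b-/- F1, F3 and M (0.71 ± 0.31, edgeR adjusted p = 0.211). Mvk and Pmvk, the kinases that act on mevalonate and its phosphate, had log2 fold changes of 0.55 and 0.18, and Acat2, the cytosolic thiolase of the first step, 0.23. In Acat2 the value became -0.03 when counts of its near-identical copy Acat3 were added, so that the 2 loci are uncertain. Pseudogene copies of Idi1 held 101 and 70 counts in the female LC3b-/- libraries F1 and F3, and 0 in all others, and adding them gave Idi1 a log2 fold change of 0.97.

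The 11 squalene and sterol enzymes had a median log2 fold change of 0.51, beside 0.62 for the mevalonate and isoprenoid enzymes. In 9 of the 11 the LC3b-/- libraries ran F1 over F3 over M, as in 18.9% of all genes tested. Cyp51, the lanosterol demethylase, stood at 34.8, 32.1, 31.2 and 34.0 CPM in WT and at 102, 56.6 and 27.6 CPM in LC3b-/- F1, F3 and M. The WT mean was 33.0 ± 1.68 CPM (SD, n = 4). The female LC3b-/- libraries were well above them and the male one was below all of them. The log2 fold change was 0.91 ± 0.37 (edgeR adjusted p = 0.193). Nsdhl, a dehydrogenase in the removal of the C4 methyl groups, had 13.4, 13.6, 13.3 and 14.4 CPM in WT and 30.8, 20.9 and 12.8 CPM in LC3b-/- (0.65 ± 0.27, edgeR adjusted p = 0.196). Ebp, the sterol isomerase, had 15.7, 11.9, 13.5 and 13.3 CPM in WT and 25.2, 19.3 and 13.8 CPM in LC3b-/- (0.51 ± 0.21, edgeR adjusted p = 0.201). In both genes the groups overlapped only through LC3b-/- M. Of the other 8 enzymes of this stretch, Lss (lanosterol synthase) at 0.73, Dhcr7 (the reductase of 7-dehydrocholesterol) at 0.72, Sqle (squalene epoxidase) at 0.70, Hsd17b7 (a sterol ketoreductase) at 0.45, Msmo1 (methylsterol monooxygenase) at 0.36, Sc5d (a sterol desaturase) at 0.28 and Tm7sf2 (a sterol reductase) at 0.17 had log2 fold changes above 0. Fdft1, the squalene synthase that commits farnesyl to sterol, was at 66.6 to 97.6 CPM in WT and 94.0, 60.1 and 62.1 CPM in LC3b-/- F1, F3 and M (-0.10 ± 0.21, edgeR adjusted p = 0.790), and its sign differed between alternatives.

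The genes of SREBP control had no common direction. Srebf2, the precursor of the factor that acts mainly on cholesterol genes, stood at 111, 93.3, 112 and 118 CPM in WT and at 189, 141 and 117 CPM in LC3b-/- F1, F3 and M. The female LC3b-/- libraries lay above all WT libraries and the male one just below WT M1 (0.46 ± 0.18, edgeR adjusted p = 0.182). Insig1, itself a target of SREBP, had 64.2, 49.1, 48.2 and 56.4 CPM in WT and 113, 72.9 and 55.3 CPM in LC3b-/- (0.56 ± 0.24, edgeR adjusted p = 0.208), with the same split by mouse. Insig2, its paralog, had 47.7, 40.7, 49.99 and 53.8 CPM in WT and 44.1, 38.7 and 47.8 CPM in LC3b-/-, and its groups overlapped, with LC3b-/- F3 alone below all WT libraries (-0.14 ± 0.13, edgeR adjusted p = 0.536).

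Srebf1, whose products act mainly on fatty acid genes, was at 212, 202, 248 and 389 CPM in WT and 188, 194 and 301 CPM in LC3b-/-. The male library was the highest of each group, the groups overlapped, and the log2 fold change of -0.21 ± 0.28 (edgeR adjusted p = 0.688) became 0.04 without WT M1. Scap, the escort, was at 129, 128, 169 and 176 CPM in WT and 99.2, 119 and 156 CPM in LC3b-/- (-0.27 ± 0.20, edgeR adjusted p = 0.429). Its female LC3b-/- libraries lay below all WT libraries, the reverse of Srebf2. The Golgi proteases that cut SREBP, Mbtps1 and Mbtps2, had log2 fold changes of 0.06 and -0.39, and their groups overlapped. Per kilobase of canonical transcript, Srebf1 was at a WT level of 60.6 CPM, against 21.4 for Srebf2, 35.6 for Scap, 19.9 for Insig1 and 17.2 for Insig2.

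In each of the 3 genes of sterol transport the groups did not overlap. Stard4 stood at 8.25, 6.09, 5.35 and 4.50 CPM in WT and at 49.7, 29.9 and 18.3 CPM in LC3b-/- F1, F3 and M. The lowest LC3b-/- library, the male, was over the highest WT library, and the LC3b-/- libraries were 8.22, 4.94 and 3.03 times the WT mean. The mean was 6.05 ± 1.61 CPM in WT (SD, n = 4) and 32.6 ± 15.9 in LC3b-/- (SD, n = 3), with a log2 fold change of 2.43 ± 0.36 and an edgeR adjusted p = 0.0563, just short of the threshold. The adjusted p of DESeq2 was 2.57e-08, and Stard4 was called in 10 of 16 alternative fits. Npc1, the lysosomal membrane protein that exports cholesterol, stood at 46.2, 46.2, 40.9 and 31.5 CPM in WT and at 67.0, 76.4 and 66.0 CPM in LC3b-/-. Here all 3 LC3b-/- libraries, of either sex, lay close together above every WT library (0.76 ± 0.15, edgeR adjusted p = 0.0906). Npc2, the soluble protein that hands cholesterol to NPC1, was at 437, 408, 432 and 515 CPM in WT and 263, 279 and 391 CPM in LC3b-/-, below every WT library (-0.53 ± 0.18, edgeR adjusted p = 0.153). Per kilobase, Npc2 had the highest WT level of the 29 genes (112 CPM) and Stard4 the lowest (1.14 CPM).

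**Figure D3:**
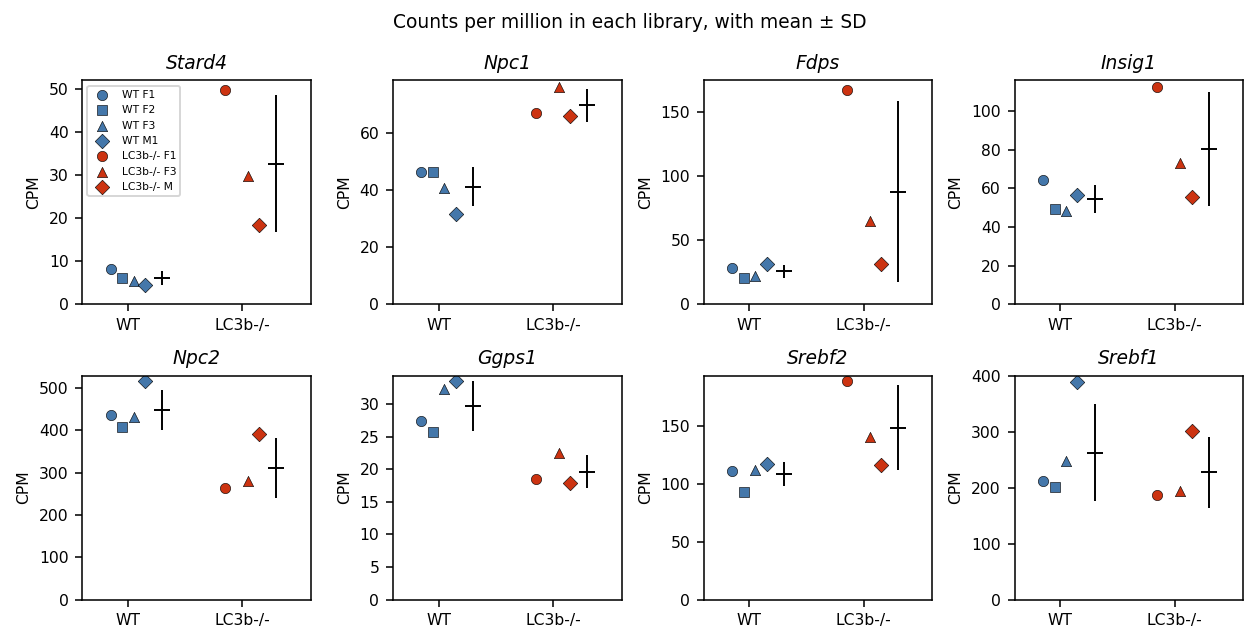
CPM of 8 genes in each library (points, shape giving the mouse) with the mean and SD of each group beside them, on linear axes from 0. Stard4, Npc1 and Fdps lie higher in all 3 LC3b-/- libraries and Npc2 and Ggps1 lower, whereas Insig1, Srebf2 and Srebf1 overlap.

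The fold changes of the enzymes averaged LC3b-/- libraries that were unlike each other. LC3b-/- F1 lay above all WT libraries in 17 of 19 enzymes (32.6% of all genes tested did), F3 in 14 (26.9% of all) and M in 1, Fdps (25.6% of all). LC3b-/- M lay below all WT libraries in 9 of 19 (19.6% of all genes). The median ratio of the 19 enzymes to their WT mean was 2.23 for F1, 1.32 for F3 and 0.916 for M of the LC3b-/- mice, where over all genes tested it was 0.990, 0.996 and 1.00. The order F1 over F3 over M held in 15 of 19 enzymes (78.9%) and in 18.9% of all genes. Stard4 kept this order, and Npc1, Npc2 and Ggps1 did not. Summed over the 19 enzymes, the libraries held 596, 502, 578 and 651 CPM in WT and 1296, 744 and 520.3 CPM in LC3b-/-.

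The sum of the ocular surface markers followed the same order of LC3b-/- libraries. Krt12 did not, at 2313, 2.41 and 12.4 CPM in LC3b-/- F1, F3 and M and 786 CPM in WT M1. The 11 ocular surface markers summed to 887, 631, 10.8 and 2489 CPM in the WT libraries F1, F2, F3 and M1, and to 25735, 7044 and 3501 CPM in LC3b-/- F1, F3 and M, and 11, 10 and 10 of the 11 lay above all WT libraries in these LC3b-/- libraries. The 10 RPE markers summed to 23097, 22021, 27432.5 and 33026 CPM in WT and to 10901, 12589 and 20744 CPM in LC3b-/-, lowest in LC3b-/- F1. None of these markers was at 3 counts or fewer in all libraries. The 6 endothelial markers summed to 166 to 526 CPM in WT and 642 to 711 CPM in LC3b-/-, the 5 fibroblast markers to 313 to 1289 and 812 to 1735, and the 9 macrophage and microglia markers to 377 to 527 and 257 to 489.6. Of these last 9, 4 had a log2 fold change above 0 (51.2% of all genes tested), and Csf1r had the highest CPM in every library. Cd68 was at 10.7 to 29.3 CPM in WT and at 29.4 to 52.8 CPM in LC3b-/-. Csf1r went the other way, at 208 to 317 CPM in WT and 93.7 to 260 CPM in LC3b-/-, with groups that overlapped. The median log2 fold change of the 9 was -0.14. The 10 rod markers ranged from 276 to 20998 CPM in WT and from 96.0 to 7098 in LC3b-/-, and the 4 Müller glia markers from 2364 to 2806 and from 2468 to 3082. Between WT F3 and WT M1, the ends of the ocular surface range in WT and mice of different sex, the enzyme sum went from 578 to 651 CPM. LC3b-/- M had an ocular surface sum above any WT library but far below that of LC3b-/- F1, and an enzyme sum inside the WT range. The part of these other cells in the fold changes above was not tested.

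**Figure D4:**
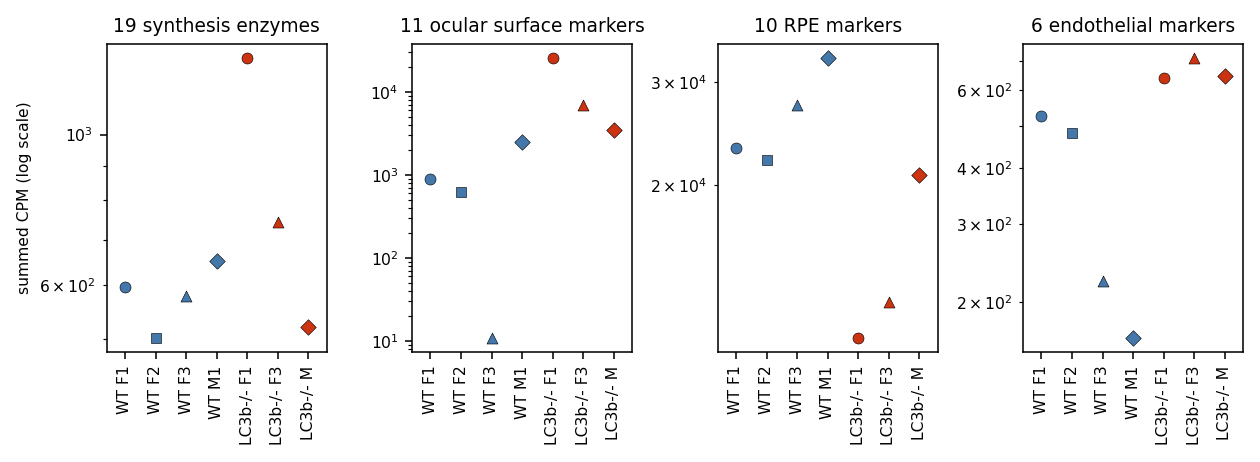
Summed CPM per library on log axes for the 19 synthesis enzymes and for ocular surface, RPE and endothelial markers. LC3b-/- F1 has the highest enzyme sum (1296 CPM), the highest ocular surface sum (25735 CPM) and the lowest RPE sum (10901 CPM).

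Leaving out LC3b-/- F1 lowered the median log2 fold change of the enzymes from 0.55 to 0.15 and the number of the 29 genes at an unadjusted p under 0.05 from 12 to 4. These were Fdps, Ggps1, Stard4 and Npc1, and 13.8% of all genes in that fit passed, so that the count was at the share of all genes. Leaving out LC3b-/- M instead gave an enzyme median of 0.79 and 20 genes at that p (26.2% of all genes in that fit). The median of the 3 transport genes, which is the value of Npc1 itself, stayed at 0.65 to 0.82 whichever library was left out, and the log2 fold change of Stard4 at 1.99 to 2.71.

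**Figure D5:**
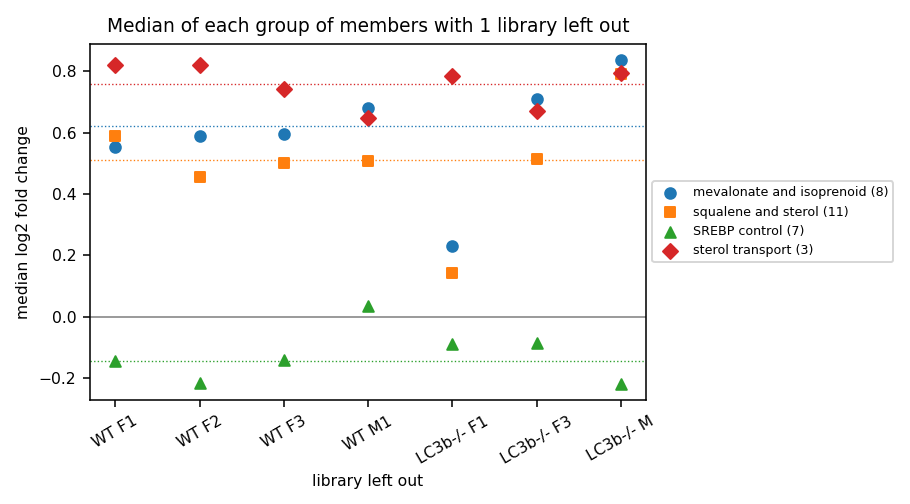
Median log2 fold change of the 4 role groups (colours) after leaving out the library named on the x axis, with dotted lines at the medians over all 7 libraries. The enzyme groups drop without LC3b-/- F1, and the transport group stays between 0.65 and 0.82.

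The split between female and male libraries was compared directly, with only 1 male in each group. In LC3b-/- the mouse names of the females share a number that the male's does not. Sex and this number cannot be told apart there. In females the ocular surface markers summed to 10.8 to 887 CPM in WT and to 25735 and 7044 CPM in LC3b-/-. In the WT and LC3b-/- males they summed to 2489 and 3501 CPM, so that this signal cannot be told apart from sex either. Over the 19 enzymes, the median difference in log2 CPM between genotypes was 0.81 in females and -0.30 in males, and over all genes it was -0.02 and 0.07. Both female LC3b-/- libraries lay above all female WT libraries in 16 of 19 enzymes (20.2% of all genes tested), and the male LC3b-/- library lay below the male WT library in 16 of 19 (45.0% of all). A fit of sex, genotype and their interaction was added because of this split and is not independent of it, and with 1 male per genotype its spread comes from the females alone. It gave none of the 29 genes at an adjusted p under 0.05 by edgeR (1 of all genes tested) and 7 at an unadjusted p under 0.05 (3.59% of all). Stard4 had a difference of 2.57 in females and 2.01 in males and Npc1 of 0.69 and 1.06, in the same direction in both sexes. The other genes whose groups did not overlap also kept their direction. These were Ggps1 (-0.47 in females and -0.90 in males), Npc2 (-0.65 and -0.40) and Fdps (2.14 and only 0.02).

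The genes around the pathway lay on both sides of 0. Of 27 neighbours in sterol handling, enzyme turnover and prenylation, 10 had a log2 fold change above 0 and 17 below, with a median of -0.09 (6 higher and 4 lower at an unadjusted p under 0.05, where 13.5% and 10.6% of all genes were). None was called by edgeR (0.235% of all genes were) and 1, Erlin1, by DESeq2, which called 9.48% of 19117 genes. The smallest p values among them belonged to Cyb5r3, a reductase that passes electrons to sterol enzymes through cytochrome b5 (0.55 ± 0.16, edgeR adjusted p = 0.113), Erlin1, an endoplasmic reticulum protein that binds cholesterol (0.84 ± 0.25, edgeR adjusted p = 0.120), and Pgrmc1, a heme protein that binds sterol demethylase (-0.42 ± 0.13, edgeR adjusted p = 0.125). Of 16 genes listed here as fatty acid targets of SREBP1, not all of which need be specific to it, 8 had a log2 fold change above 0 and 8 below. Their median was -0.01. At an unadjusted p under 0.05 by edgeR 1 was higher, Aacs, and 3 were lower, beside 13.5% and 10.6% of all genes. None was called by edgeR and 2, Aacs and Fads2, by DESeq2, beside 9.48% of all genes. Aacs, which makes acetoacetyl-CoA from ketone bodies for lipid synthesis, was at 11.4 to 14.4 CPM in WT and at 49.5, 24.6 and 16.8 CPM in LC3b-/- F1, F3 and M (1.21 ± 0.34, edgeR adjusted p = 0.109). This was the order of mice seen in the cholesterol enzymes. Fads2, a fatty acid desaturase, was at 245 to 395 CPM in WT and 147, 146 and 212 CPM in LC3b-/- (-0.81 ± 0.23, edgeR adjusted p = 0.112), and Me1, which supplies NADPH for lipid synthesis, had a log2 fold change of -0.63 ± 0.24 (edgeR adjusted p = 0.173).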

How the data were processed

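RNA from the RPE of 4 WT and 3 LC3b-/- mice was sequenced as stranded polyadenylated libraries of single reads. The authors estimated reads per transcript with salmon against GENCODE vM26 on GRCm39 and totalled them by gene with tximeta. What the authors deposited are estimated counts, whole numbers without scaling for depth, of which a library held 24495952 to 35616134. Trimming, the strand setting and the way of rounding are not given in the sources used here. All 7 columns were used.

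The counts were fitted with edgeR 4.0.16 under R 4.3.3 (filterByExpr, TMM, quasi-likelihood test of LC3b-/- against WT, no covariates, Benjamini-Hochberg over 16990 genes, common dispersion 0.158). A call needs a fold change of 1.5 or more and an adjusted p under 0.05, the thresholds of the study. CPM use a prior count of 2 where logged. The code was tested on simulated data. Alternatives were DESeq2 1.42.0, limma 3.58.1 voom with quality weights, 2 other scalings, 2 other filters, sex as a covariate, females only, a block on the mouse number, each library left out, no fold threshold, and counts summed with near-identical copies (BLAST 2.17.0, 95% identity or more along 500 bases or more). Genes were named with GENCODE vM39 on the same build, which matched 51721 of 52740 identifiers. Promoter windows are RefSeq's (GRCm38.p6), and those printed were placed on GRCm39 by exact match. Figures were drawn with Python 3.11.15 and matplotlib 3.10.9.

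The 29 genes, the lists and the tests were chosen with earlier results of these data known. Values by library were given for every gene of the 29 with an unadjusted p under 0.05 or with groups that do not overlap, and for Srebf1, Srebf2, Scap, Insig1, Insig2, Npc1 and Npc2. Hmgcs1 and Fdft1 were added after their values were seen, as were the Insig1 and Acat2 promoters. Genes of the other lists were named where they had the 3 smallest p values of their list. Libraries are separate mice, and libraries of a group differed far beyond sampling noise. Mouse names also carry another number, which the labels do not explain. WT and LC3b-/- never share it, so that it cannot be told apart from genotype. In LC3b-/- the females share it and the male has a different one, so that there it cannot be told apart from sex.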

Additional observations from a re-analysis of the deposited data

How the results depend on the processing

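With edgeR none of the 29 genes was called. The same fit called 40 of all 16990 genes. DESeq2 called 4 (Fdps, Ggps1, Stard4 and Npc1, against 1813 of 19117 genes). Sex as a covariate gave 2 (Stard4 and Npc1, against 197 of 16990). Stard4 alone was called with limma voom (124 of 16990 genes), DESeq2's size factors (57) and library size alone (49). It was also the only call with no filter (78 of 28835), at least 10 counts in every library (46 of 14441) and females only (96 of 17434). Leaving out 1 library gave 0 to 3 calls. The 3 (Fdps, Cyp51 and Stard4) came without LC3b-/- M, where 485 of 17553 genes were called. Without WT F1 there was 1 (Stard4, against 215 of 16753 genes). Without any other library none of the 29 was called, and 11 to 20 of all genes were. Over all alternatives the adjusted p of Stard4 ranged from 2.57e-08 to 0.204. The 12 genes at an unadjusted p under 0.05 became 19 with females only (21.6% of all genes) and 4 to 20 with 1 library left out: 4 without LC3b-/- F1 (13.8% of all), 20 without LC3b-/- M (26.2%), and 5 to 7 without any 1 of the other libraries (17.1% to 28.6%). The enzyme median of 0.55 ranged from 0.15 (without LC3b-/- F1) to 0.79 (without LC3b-/- M) with 1 library left out, and was 0.85 with females only. The 5 genes whose groups do not overlap (22.3% of all genes) became 8 with library size alone (22.1%), 4 with DESeq2's size factors (22.9%) and 5 to 23 with 1 library left out, 8 without WT M1 (25.5%) and 23 without LC3b-/- M (39.6%). The cause of these differences was not tested.

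Signs turned in 6 genes. Fdft1 (-0.10) was 0.12 with females only, 0.050 with the replicate block and -0.34 to 0.027 with 1 library left out. With 1 library left out Srebf1 ranged from -0.46 to 0.043, Acat2 from -0.13 to 0.45, Msmo1 from -0.015 to 0.58, Hsd17b7 from -0.10 to 0.79 and Mbtps1 from -0.021 to 0.092, and Acat2 summed with Acat3 was -0.033. The replicate block on the mouse number gave 0 calls (0 of all genes tested), 13 genes at an unadjusted p under 0.05 (17.0% of all) and an enzyme median of 0.78. The numbers F1 and F3 give only 2 pairs, with correlations of 0.146 and 0.243 between deviations from the group means, and nothing says that they pair the mice. With 3 LC3b-/- libraries that differ as described, precision is limited by mice rather than by depth.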
